A study of Rattus norvegicus with 18 samples.

Results

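The transporters, channels and kinases that set sodium reabsorption in the distal part of the kidney tubule were examined in whole-kidney RNA from 18 rats. The group holds 10 genes: the transporters Slc12a1 and Slc12a3, the sodium channel subunits Scnn1a, Scnn1b and Scnn1g, the potassium channel Kcnj1, and the kinases Wnk1, Wnk4, Stk39 and Sgk1. They were chosen by symbol, and each probe set annotated to them was taken. Of the 10 genes, 9 had at least 1 probe set naming them alone, and these 16 probe sets stand among 20826 that name 1 of 14217 genes alone and 31042 in all. Wnk4 was reached only by 2 probe sets that each name 3 genes (Vps25, Cntd1 and Wnk4), so no Wnk4 level is given here.

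S.SHR(2) is a congenic rat made from SS/Jr and SHR/NHsd, and Dahl S is the salt-sensitive SS/Jr strain itself. Both therefore share the Dahl S background, and the name of the congenic places the SHR segment on chromosome 2. Kidneys of 9 rats of each strain were measured, with 1 Affymetrix Rat Genome 230 2.0 array per rat. The design text speaks of male rats of 4, 12 and 20 weeks, 3 per strain and age, drawn at random from rats tested for protein in the urine. The labels give an age, male sex and a diet with 0.3% NaCl for only 2 rats, both Dahl S, 1 of 4 weeks and 1 of 12 weeks, and give none of these for the other 16, so no rat was placed in an age group. In deposit order the records were cut into 3 runs of 6, each with 3 Dahl S rats followed by 3 S.SHR(2) rats. No gap in the record numbers parts the second run from the third. These runs are called deposit blocks 1, 2 and 3 here. The rat labelled 4 weeks stands in block 1 and the rat labelled 12 weeks in block 2, both on 0.3% NaCl, and 3 rats per strain and block is also the number the design text gives per strain and age. No label gives an age for the other 16 rats. Age, handling and array processing cannot be told apart between blocks, and each block difference below is read as a difference between deposits.

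In the thick ascending limb, the cotransporter encoded by Slc12a1 (NKCC2) takes up sodium, potassium and chloride from the tubule fluid, and the channel encoded by Kcnj1 (ROMK) returns potassium to it. In the distal convoluted tubule, the cotransporter of Slc12a3 (NCC) takes up sodium with chloride, and further along the epithelial sodium channel ENaC, built from the products of Scnn1a, Scnn1b and Scnn1g, takes up sodium under the control of aldosterone. The WNK kinases act through the kinase SPAK, encoded by Stk39, which phosphorylates and activates both cotransporters, and Sgk1 is an aldosterone-induced kinase that keeps ENaC at the cell surface. Because whole kidney was measured, fewer cells of a type and less RNA per cell cannot be told apart in any value below.

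None of the 9 genes with a probe set of their own lies on chromosome 2. Scnn1b, Scnn1g and Sgk1 are on chromosome 1, Slc12a1 and Stk39 on chromosome 3, Scnn1a and Wnk1 on chromosome 4, Kcnj1 on chromosome 8 and Slc12a3 on chromosome 19, and Wnk4 is on chromosome 10. RefSeq (assembly GRCr8) listed 13 promoters, each from 250 bases before to 50 bases after a start, for 9 of the 10 genes, with none listed for Scnn1a. They were searched on both strands for AGAACA, the core of the element bound by the mineralocorticoid and glucocorticoid receptors. The core was found in 3 of the 13 promoters, those of Slc12a1 (1 of its 2) and Kcnj1 (both), and 20.7% of all 33469 promoters in the table hold it. The motif CACGTG, an E-box, which overlaps no AGAACA match, was found in none of the 13, against 6.42% of all promoters. A match describes the letters only. The promoters below are shown 5′ to 3′ on the gene's strand because 2 of these genes (Slc12a3 and Scnn1b) differed between blocks and the other 2 (Slc12a1 and Kcnj1) were not called. Scnn1g, Wnk1 and Stk39, not shown, also had block calls and hold no AGAACA match. Sgk1, whose block term was not called, holds none either. Slc12a1 (no match) and Kcnj1 (2 matches) each have another promoter that is not shown. A link between matches and calls was not tested. Slc12a3 lies at chr19:10675001-10675300 (minus strand), Scnn1b at chr1:185861126-185861425 (plus strand), Slc12a1 at chr3:132859409-132859708 (plus strand) and Kcnj1 at chr8:39037742-39038041 (plus strand). Capitals mark AGAACA or its reverse complement TGTTCT.
Slc12a3: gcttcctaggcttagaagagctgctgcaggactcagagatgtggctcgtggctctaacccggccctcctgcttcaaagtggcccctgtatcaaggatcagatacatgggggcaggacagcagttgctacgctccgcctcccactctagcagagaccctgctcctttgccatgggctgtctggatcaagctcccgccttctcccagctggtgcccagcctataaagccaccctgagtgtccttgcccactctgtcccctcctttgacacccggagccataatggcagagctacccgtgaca
Scnn1b: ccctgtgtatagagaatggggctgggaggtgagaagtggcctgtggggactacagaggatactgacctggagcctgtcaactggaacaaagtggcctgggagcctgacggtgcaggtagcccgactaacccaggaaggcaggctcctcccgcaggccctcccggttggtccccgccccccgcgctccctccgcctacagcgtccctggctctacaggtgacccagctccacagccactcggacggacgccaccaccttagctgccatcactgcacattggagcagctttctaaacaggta
Slc12a1: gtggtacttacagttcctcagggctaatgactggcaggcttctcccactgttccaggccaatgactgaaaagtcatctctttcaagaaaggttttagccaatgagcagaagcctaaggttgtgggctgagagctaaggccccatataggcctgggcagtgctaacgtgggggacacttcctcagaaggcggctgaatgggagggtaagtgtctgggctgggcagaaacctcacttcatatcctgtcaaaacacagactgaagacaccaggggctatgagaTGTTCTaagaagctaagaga
Kcnj1: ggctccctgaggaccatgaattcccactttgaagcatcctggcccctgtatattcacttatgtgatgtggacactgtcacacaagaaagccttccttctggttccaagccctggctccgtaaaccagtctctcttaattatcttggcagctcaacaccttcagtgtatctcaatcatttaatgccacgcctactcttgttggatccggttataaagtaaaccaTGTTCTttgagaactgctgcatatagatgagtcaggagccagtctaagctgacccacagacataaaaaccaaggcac

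Intensities are the deposited values, in units that give every array the same trimmed mean. The differences tested are on the scale log2(intensity + 16) after quantile normalization between arrays, on which the change of a dim probe set is understated. A call is an adjusted p under 0.05 from limma over the 18625 probe sets bright enough to be tested. Of the 16 probe sets, 13 were tested. The 3 dim ones were 1368203_at for Scnn1a, between 1.6 and 39.0 units, and 1368140_at and 1375300_at for Wnk1, with highest values of 25.6 and 11.3 units. Some measures of the arrays moved with the blocks. The brightest probe set lay between 7508.3 and 9498.5 units on the 6 arrays of block 3, against 11117.1 to 14648.3 units on the 12 arrays of blocks 1 and 2. The ratio of 3′ to 5′ beta-actin probe sets, a sign of RNA length, ran from 2.27 to 3.004 in block 3, against 2.22 to 6.83 in blocks 1 and 2. Its median was 2.635 in block 3 and 3.65 in blocks 1 and 2. The same ratio for GAPDH moved the other way, with a median of 1.526 in block 3 and 1.389 in blocks 1 and 2. Only the beta-actin ratio was used in the fits below.

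The first question was whether the distal transport genes differed between the strains, a salt-sensitive rat and its congenic. No member did. With limma over all 18 rats, 0 of the 13 probe sets were called, and 0 reached an unadjusted p under 0.05, against 0.123% called and 4.02% with an unadjusted p under 0.05 over all probe sets tested. The adjusted p was 1 for each of the 13. Of the 13 differences, S.SHR(2) minus Dahl S, 8 were below 0, against 48.5% of all probe sets, and their median was -0.13, against 0.00 over all. No probe set of the 13 had separate strain ranges, against 0.113% of all. The fit of strain alone left the block differences in its spread. With block in the fit, 4 of 13 had an unadjusted limma p under 0.05, against 9.27% of all. In that fit 0 of the 13 were called, against 0.494% of all.

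**Figure D1:**
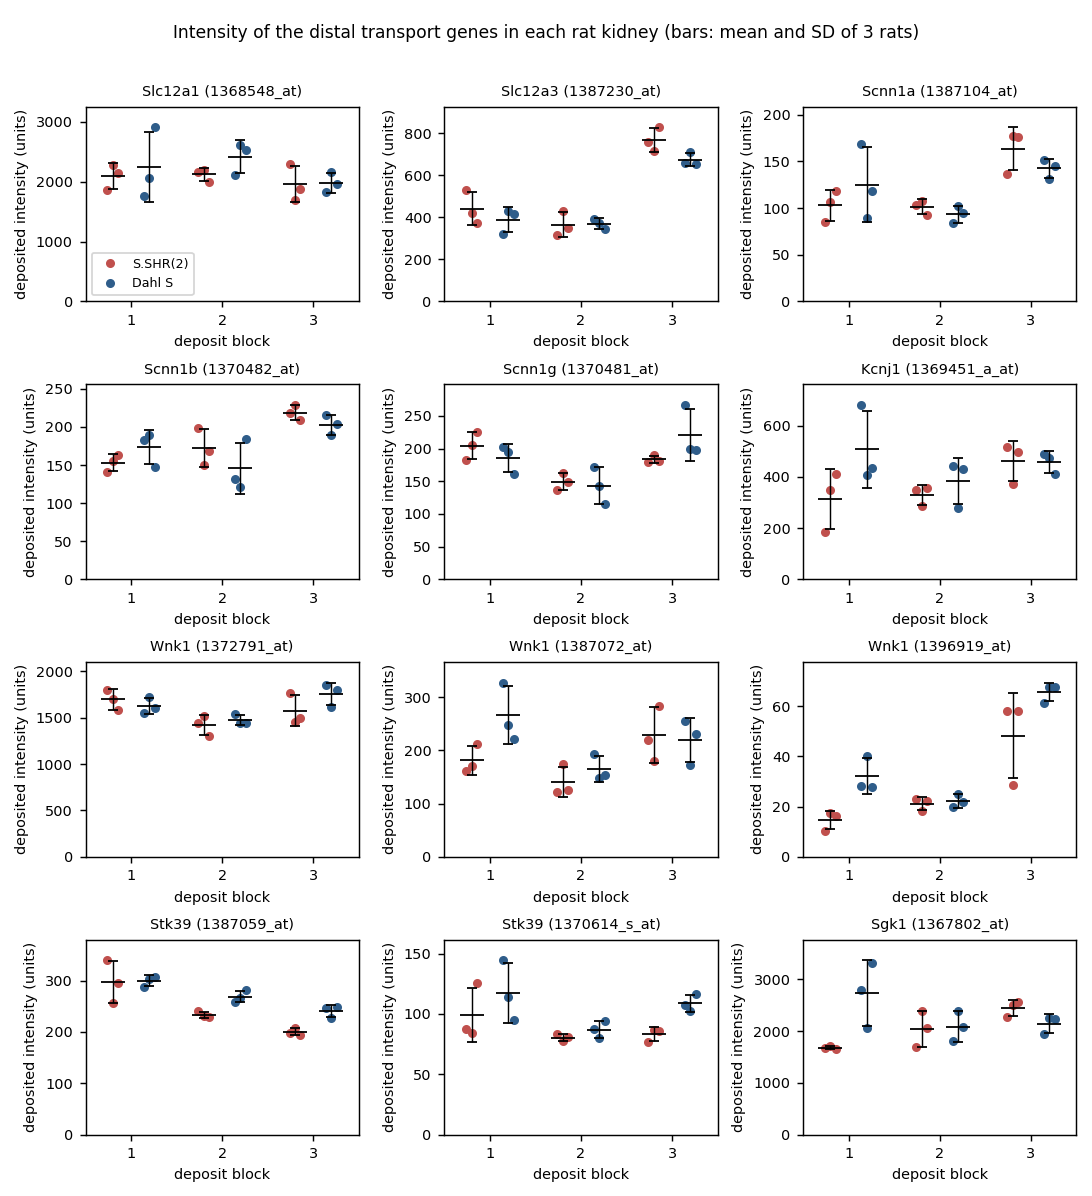
Deposited intensity (vertical axis, units) of 12 probe sets in each rat, by deposit block (horizontal axis), with S.SHR(2) in red on the left and Dahl S in blue on the right of each block, and the mean and SD of 3 rats in black. Slc12a3 stands apart in block 3, where the 6 rats lie between 653.7 and 828.8 units, while the strains overlap within most blocks.

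Slc12a1, the cotransporter of the thick ascending limb (1368548_at), averaged 2057 ± 208 units in S.SHR(2) and 2213 ± 387 units in Dahl S (SD, n = 9 each). Its lowest, median and highest values were 1696.1, 2147.9 and 2287.8 units in S.SHR(2), against 1764.8, 2109.9 and 2904.7 units in Dahl S. The strains overlapped, with a difference of -0.13 ± 0.09 (SE) and a 95% interval of -0.33 to 0.06. Within the cells of strain and block lay 74.3% of its sum of squares, against a median of 46.4% over all probe sets. Block means were 2169, 2269 and 1967 units in blocks 1, 2 and 3 (n = 6 each), and the block term did not pass (limma, adjusted p = 0.309).

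Kcnj1, the potassium channel of the same segment (1369451_a_at), had the most negative strain difference among the transporters and channels. In block 1, Kcnj1 read 184.3, 347.7 and 409.8 units in S.SHR(2) rats, against 681.1, 406.9 and 434.2 units in Dahl S rats. In block 2, Kcnj1 read 349.2, 284.5 and 355.1 units in S.SHR(2) rats, against 442.9, 280.4 and 429.9 units in Dahl S rats. In block 3, Kcnj1 read 516.0, 373.9 and 499.0 units in S.SHR(2) rats, against 490.2, 472.9 and 410.4 units in Dahl S rats. The lowest and the highest of the 18 values both fell in block 1, at 184.3 units in an S.SHR(2) rat and 681.1 units in a Dahl S rat, and the strains overlapped in every block. The strain difference was -0.30 ± 0.16 (SE; 95% interval -0.63 to 0.04) over all rats and -0.70 ± 0.23 in block 1 (limma, adjusted p = 0.334). The block term did not pass either (adjusted p = 0.224), though block 3 minus block 2 passed without S.SHR(2) replicate 1 (0.34, adjusted p = 0.0384).

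The Kcnj1 values moved with the beta-actin ratio. The array with 184.3 units had the highest ratio of the 18, 6.83, and the array with 681.1 units had the lowest, 2.22. Across the 18 arrays, the normalized log2 value of Kcnj1 had a Pearson r of -0.88 with the log2 ratio, and the same r after the mean of each strain and block was taken off. These arrays share their platform, and ratio and level come from the same RNA. With the ratio in the fit, the strain difference was -0.19, and without the S.SHR(2) rat of lowest value it was also -0.19. The part of RNA length in the Kcnj1 values was not tested beyond these fits. Slc12a3 had an r of -0.39 over the arrays and 0.62 after the cell means were taken off.

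**Figure D2:**
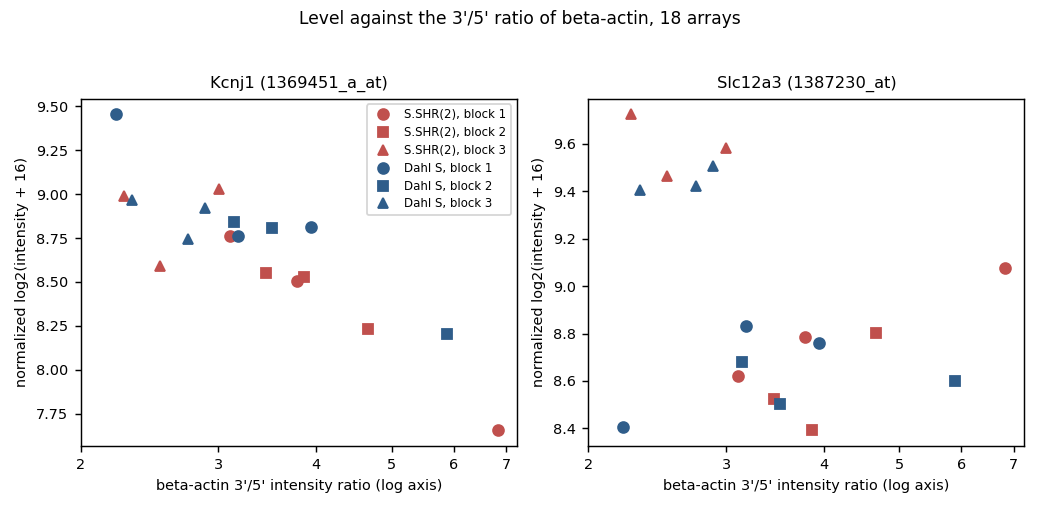
Normalized log2 value of Kcnj1 and Slc12a3 (vertical axes) against the beta-actin 3′/5′ ratio (horizontal axis, log scale) on the 18 arrays, coloured by strain with a marker shape for each block. Kcnj1 is lower where the ratio is higher, with r = -0.88, while the 6 highest Slc12a3 values belong to block 3.

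Slc12a3, the cotransporter of the distal convoluted tubule (1387230_at), was the only tested member whose block 3 values all stood apart from both other blocks. In block 1, Slc12a3 read 528.7, 421.1 and 373.8 units in S.SHR(2) rats, against 319.5, 429.2 and 418.7 units in Dahl S rats. In block 2, Slc12a3 read 316.4, 432.0 and 348.7 units in S.SHR(2) rats, against 393.9, 374.5 and 343.8 units in Dahl S rats. In block 3, Slc12a3 read 759.4, 715.5 and 828.8 units in S.SHR(2) rats, against 659.2, 710.6 and 653.7 units in Dahl S rats. Every rat of block 3 lay above every rat of blocks 1 and 2. Of the 13 probe sets, Slc12a3 was the only one with block 3 separate from both other blocks, 7.69% against 9.67% of all probe sets. By size, its block 3 minus block 1 difference stood at percentile 91.7 of all probe sets tested, and that of Wnk1 1396919_at at 95.6. Against block 2 alone, 4 of 13 had a separate block 3 range, all higher (19.7% of all probe sets), and against block 1 alone 2 of 13 did, Slc12a3 higher and Stk39 1387059_at lower (18.1% of all).

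The second question was which members differed between the blocks, with strain in the fit. Means over the 6 rats of a block were 415 ± 69.3, 368 ± 41.1 and 721 ± 65.7 units of Slc12a3 (SD) in blocks 1, 2 and 3. Slc12a3 was 1.91-fold higher in block 3 than in block 2 (95% interval 1.67 to 2.18, limma adjusted p = 6.28e-08) and 1.71-fold higher than in block 1 (1.49 to 1.95, adjusted p = 6.95e-07). The rise over block 1 was present in each strain fitted alone, at 0.76 ± 0.14 on the log2 scale in S.SHR(2) (adjusted p = 0.000986) and 0.78 ± 0.12 in Dahl S (adjusted p = 0.000419). It was 0.89 with the beta-actin ratio in the fit (adjusted p = 4.5e-08). Block held 87.5% of the Slc12a3 sum of squares and strain 1.2%, against medians of 36.7% and 2.3% over all probe sets.

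Block calls were common on these arrays. The block term passed for 8 of the 13 probe sets, 61.5%, against 50.1% of all probe sets tested, so the members' share was near that of the array. In S.SHR(2) alone it passed for 7 of 13, against 29.8% of all, and in Dahl S alone for 4 of 13, against 28.5% of all. Block 3 differed from block 1 for 6 of 13 in S.SHR(2) alone, against 28.3% of all, and for 3 of 13 in Dahl S alone, against 23.2% of all. In block 3 against block 2, 7 of 13 were higher and 0 lower, with 34.7% of all probe sets called, 17.7% higher and 16.9% lower. In block 3 against block 1, 4 were higher and 1 lower, with 41.1% of all called, 20.7% higher and 20.4% lower. In block 2 against block 1, 0 were higher and 4 lower, with 19.1% of all called, 9.93% higher and 9.22% lower. The median difference of the 13 was -0.16 for block 2 minus 1, 0.35 for block 3 minus 2 and 0.13 for block 3 minus 1, against 0.00, 0.01 and 0.01 over all probe sets. The differences between blocks 3 and 2 and between blocks 2 and 1 share the arrays of block 2. The counts are of probe sets, and some genes count more than once. The 7 higher in block 3 against block 2 include every tested Wnk1 probe set. The 4 lower in block 2 against block 1 include both Stk39 probe sets. The counts also include Wnk1 1396919_at, which passed the filter through its high values in block 3.

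**Figure D3:**
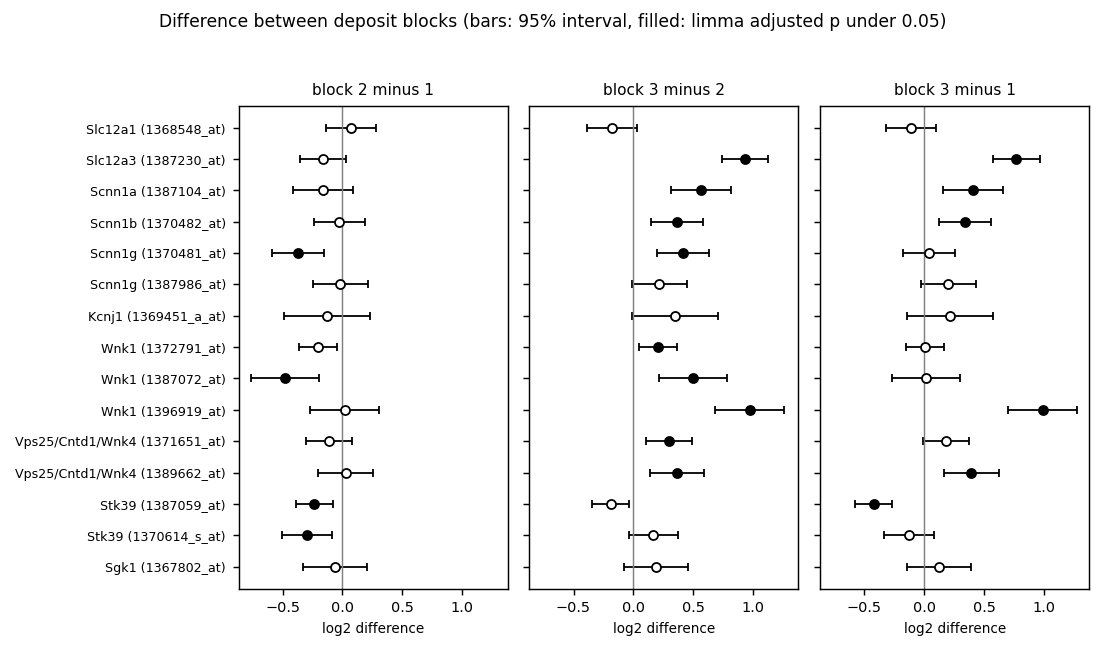
Differences between deposit blocks on the log2(intensity + 16) scale (horizontal axis, with 95% intervals) for the tested probe sets, in panels for block 2 minus 1, block 3 minus 2 and block 3 minus 1, with filled symbols where the adjusted p was under 0.05. Wnk1 1396919_at (0.99) and Slc12a3 (0.77) lie farthest to the right for block 3 minus 1, and Stk39 1387059_at (-0.42) farthest to the left. Wnk1 1396919_at passed the filter through its high values in block 3.

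At least 1 probe set of each ENaC subunit was higher in block 3 than in block 2, and 1 tested probe set, of Scnn1g, was not called. In block 1, Scnn1a (1387104_at) read 85.1, 106.3 and 118.1 units in S.SHR(2) rats, against 168.7, 88.9 and 117.9 units in Dahl S rats. In block 2, Scnn1a read 103.7, 108.0 and 92.5 units in S.SHR(2) rats, against 83.9, 101.9 and 95.0 units in Dahl S rats. In block 3, Scnn1a read 136.9, 177.4 and 176.0 units in S.SHR(2) rats, against 151.4, 131.6 and 145.0 units in Dahl S rats. Each rat of block 3 lay above each rat of block 2, whereas 1 Dahl S rat of block 1, at 168.7 units, lay within the block 3 range. Scnn1a was higher in block 3 than in block 2 by 0.56 ± 0.12 (SE, limma adjusted p = 0.000962) and than in block 1 by 0.41 ± 0.12 (adjusted p = 0.0102).

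Scnn1b (1370482_at) averaged 163 ± 19.3, 159 ± 30.1 and 211 ± 13.4 units in blocks 1, 2 and 3 (SD, n = 6 each). In block 3, Scnn1b read 218.2, 228.8 and 209.1 units in S.SHR(2) rats, against 215.6, 189.6 and 204.3 units in Dahl S rats. The 3 blocks overlapped, since 1 S.SHR(2) rat of block 2 read 199.1 units and 1 Dahl S rat of block 1 read 189.7 units. Scnn1b was higher in block 3 than in block 2 by 0.37 ± 0.10 (limma, adjusted p = 0.00862) and than in block 1 by 0.34 ± 0.10 (adjusted p = 0.0116). Fitted alone, S.SHR(2) gave block 3 minus block 1 differences of 0.61 for Scnn1a and 0.48 for Scnn1b (adjusted p = 0.00611 and 0.0129), against 0.20 and 0.20 in Dahl S (adjusted p = 0.467 and 0.384). The strains were not shown to differ in this, as the interaction of strain and block did not pass for either (adjusted p = 0.81 and 0.776).

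The 2 probe sets of Scnn1g did not give the same calls. With 1370481_at, Scnn1g averaged 195 ± 21.7, 146 ± 20.0 and 202 ± 32.5 units in blocks 1, 2 and 3 (SD, n = 6 each). It was lower in block 2 than in block 1, with a difference of -0.37 ± 0.11 (SE, limma adjusted p = 0.0144) and higher in block 3 than in block 2 by 0.41 ± 0.11 (adjusted p = 0.00372). The values were low in block 2, with every block 2 rat below every block 3 rat, and overlapped between blocks 1 and 3. With 1387986_at, values lay between 47.6 and 102.1 units over all rats, and neither the block term (adjusted p = 0.177) nor block 3 minus block 2 passed (0.22, adjusted p = 0.138).

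The ENaC calls moved with the beta-actin ratio as well. Across 18 arrays the Pearson r with the log2 ratio was -0.70 for Scnn1a and -0.72 for Scnn1b, and -0.41 and -0.53 after the cell means were taken off. With the ratio in the fit, the differences between block 3 and block 1 were 0.27 for Scnn1a and 0.20 for Scnn1b and were no longer called (limma, adjusted p = 0.101 and 0.126). In block 3 against block 2 the call was kept for Scnn1a (0.39, adjusted p = 0.0434) and lost for Scnn1b (0.19, adjusted p = 0.234) and for Scnn1g 1370481_at (0.34, adjusted p = 0.0521). All 3 subunits had strain differences between 0.00 and 0.10 on every tested probe set, with 95% intervals that held 0.

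Among the kinases, the probe sets of Wnk1 disagreed. WNK1 stands at the top of the kinase chain, and its gene makes a long form and a kidney form that lacks most of the kinase domain. Which form each probe set reads is not annotated in the files used here. The brightest, 1372791_at, averaged 1660 ± 97.1, 1448 ± 83.3 and 1663 ± 164 units in blocks 1, 2 and 3 (SD, n = 6 each). The second, 1387072_at, averaged 224 ± 60.5, 153 ± 27.6 and 224 ± 42.7 units. The dimmest tested, 1396919_at, averaged 23.4 ± 10.8, 21.7 ± 2.48 and 57.0 ± 14.5 units. By these means of both strains, the first and the second were low in block 2 and alike in blocks 1 and 3. The dimmest stood high in block 3 alone. For 1372791_at, block 2 minus block 1 was not called (limma, adjusted p = 0.0661). Fitted alone, Dahl S and S.SHR(2) gave block 3 minus block 1 differences of 0.19 and -0.17 for 1372791_at. For 1387072_at these were -0.28 and 0.31, and none was called.

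In block 1, Wnk1 1396919_at read 10.4, 17.3 and 16.3 units in S.SHR(2) rats, against 28.3, 40.3 and 28.0 units in Dahl S rats. In block 2, it read 23.1, 18.2 and 22.3 units in S.SHR(2) rats, against 19.7, 25.2 and 21.8 units in Dahl S rats. In block 3, it read 58.0, 28.7 and 58.2 units in S.SHR(2) rats, against 61.3, 67.7 and 67.8 units in Dahl S rats. Of the 6 rats of block 3, 1 S.SHR(2) rat stayed within the range of block 1. Wnk1 1396919_at passed the filter narrowly, with a mean of 5.54 over all arrays against a level of 5.48. Its high values in block 3 carried it over, so its block 3 calls are not independent of the filter. The difference between block 3 and block 1 was 0.99 ± 0.14 (SE, limma adjusted p = 5.17e-06), and it was 1.46 with a pseudocount of 1 and 0.51 with a pseudocount of 64. It was wider than that of Slc12a3 with pseudocounts of 1 and 16 and narrower with 64, where Slc12a3 gave 0.71. The probe set 1387072_at was lower in block 2 than in block 1, with a difference of -0.48 ± 0.14 (adjusted p = 0.0154) and higher in block 3 than in block 2 by 0.50 ± 0.14 (adjusted p = 0.00707). The last of these was 0.25 with the beta-actin ratio in the fit (adjusted p = 0.229). For 1372791_at, block 3 was higher than block 2 by 0.21 ± 0.08 (adjusted p = 0.0369), a call that was kept in 11 of 18 fits with 1 rat left out.

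A probe set of Stk39, the gene of SPAK, was the 1 of the 13 that was lower in block 3 than in block 1, and the other Stk39 probe set was not called there. In block 1, Stk39 1387059_at read 339.1, 256.8 and 295.5 units in S.SHR(2) rats, against 287.4, 303.9 and 306.8 units in Dahl S rats. In block 2, Stk39 1387059_at read 239.9, 230.9 and 228.1 units in S.SHR(2) rats, against 258.8, 265.9 and 280.6 units in Dahl S rats. In block 3, Stk39 1387059_at read 198.2, 207.6 and 194.7 units in S.SHR(2) rats, against 246.9, 227.9 and 248.8 units in Dahl S rats. All rats of block 3 lay below all rats of block 1, and within blocks 2 and 3 all S.SHR(2) rats lay below all Dahl S rats. Block 3 was lower than block 1, with a difference of -0.42 ± 0.08 (SE, limma adjusted p = 9.56e-05), at 0.746 of its level, and this was called in S.SHR(2) alone (-0.52, adjusted p = 0.00636) and in Dahl S alone (-0.33, adjusted p = 0.032). With the beta-actin ratio in the fit it was -0.36 and still called.

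The other Stk39 probe set, 1370614_s_at, which lay between 77.0 and 144.4 units, was lower in block 2 than in block 1, with a difference of -0.29 ± 0.10 (limma, adjusted p = 0.0442). That call was kept in 6 of 18 fits with 1 rat left out, and its block term did not pass (adjusted p = 0.053). Its difference was -0.12 ± 0.10 for block 3 minus block 1 (adjusted p = 0.343) and 0.17 ± 0.10 for block 3 minus block 2 (adjusted p = 0.209), the second opposite in sign to that of 1387059_at (-0.19, adjusted p = 0.0564). For 1387059_at the difference between block 2 and block 1 was -0.23 ± 0.08 (adjusted p = 0.0309), kept in 13 of 18 such fits. Its means were 298 ± 26.9, 251 ± 21.0 and 221 ± 24.0 units in blocks 1, 2 and 3 (SD, n = 6 each). The strain difference of Stk39 was -0.14 with 1387059_at and -0.18 with 1370614_s_at, neither called. With block in the fit the unadjusted p of both was under 0.05 (0.0332 for 1387059_at and 0.0413 for 1370614_s_at), as it was for Wnk1 1396919_at (0.0103) and Kcnj1 (0.0484). These are 4 of 13, against 9.27% of all, and none of the 13 passed adjustment in that fit, in which 0.494% of all probe sets did.

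Sgk1, the aldosterone-induced kinase (1367802_at), had opposite strain orders in blocks 1 and 3 by deposited intensity only. In block 1, Sgk1 read 1667.9, 1715.9 and 1661.4 units in S.SHR(2) rats, against 2803.0, 2054.4 and 3324.2 units in Dahl S rats. In block 2, Sgk1 read 1685.8, 2384.8 and 2058.0 units in S.SHR(2) rats, against 1799.1, 2387.9 and 2074.4 units in Dahl S rats. In block 3, Sgk1 read 2273.8, 2506.8 and 2557.9 units in S.SHR(2) rats, against 1940.1, 2254.9 and 2239.9 units in Dahl S rats. By deposited intensity, all S.SHR(2) rats lay below all Dahl S rats in block 1 and above them in block 3. The strains overlapped in block 2. On the normalized scale they also overlapped in block 3, at 11.079, 11.233 and 11.351 in S.SHR(2) and 11.058, 11.174 and 11.228 in Dahl S. The strain difference was -0.64 ± 0.15 in block 1 (SE, limma adjusted p = 0.109) and 0.07 ± 0.15 in block 3, and was not called in any block. The interaction of strain and block did not pass in limma (0.00659 before adjustment, adjusted p = 0.648). In S.SHR(2) alone, Sgk1 was higher in block 3 than in block 1 by 0.48 ± 0.11 (adjusted p = 0.00493), and in Dahl S alone the difference was -0.23 ± 0.16 (adjusted p = 0.339).

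Strain differences within single blocks were called for 0 of the 13 probe sets in each block, against 0.161%, 0.123% and 0.338% of all probe sets in blocks 1, 2 and 3. Separate ranges of 3 against 3 rats were seen for 3 of 13 probe sets in block 1 (Sgk1 and Wnk1 1387072_at and 1396919_at, all lower in S.SHR(2)), against 10.6% of all. They were seen for 1 of 13 in block 2 (Stk39 1387059_at, lower in S.SHR(2)), against 9.27% of all. In block 3 they were seen for 6 of 13, with Slc12a3 and Sgk1 higher in S.SHR(2) and Scnn1g 1370481_at, Wnk1 1396919_at and both Stk39 probe sets lower, against 20.4% of all. All these ranges are of deposited intensities. On the normalized scale the strains overlapped in block 3 for Slc12a3, Sgk1 and Wnk1 1396919_at. The interaction term was called by limma for 0 of 13 probe sets, against 0.00537% of all, and 2 had an unadjusted p under 0.05, against 6.56% of all. These were Sgk1 and Wnk1 1372791_at (limma, adjusted p = 0.743).

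**Figure D4:**
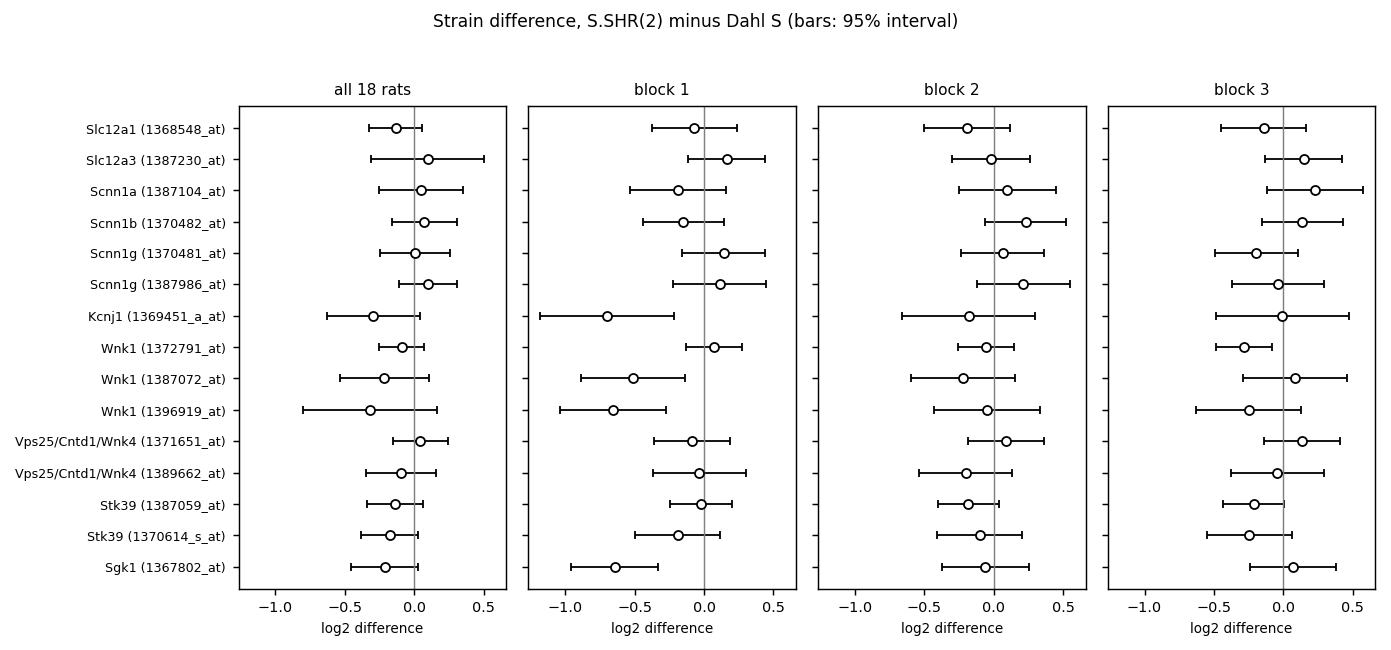
Strain differences, S.SHR(2) minus Dahl S, on the log2(intensity + 16) scale (horizontal axis, with 95% intervals) for each tested probe set, over all 18 rats and within deposit blocks 1, 2 and 3. Open symbols mark an adjusted p of 0.05 or more, which holds for every point, and Sgk1 lies at -0.64 in block 1.

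The 2 probe sets that name Vps25, Cntd1 and Wnk4 gave strain differences of 0.04 and -0.09, neither called. The first, 1371651_at, lay between 528.9 and 733.2 units in block 1, between 492.9 and 668.7 units in block 2 and between 639.8 and 912.0 units in block 3. It was higher in block 3 than in block 2 by 0.30 (limma, adjusted p = 0.0164), which was 0.09 with the beta-actin ratio in the fit (adjusted p = 0.492). The probe set 1389662_at was higher in block 3 than in block 2 by 0.36 (adjusted p = 0.0135) and than in block 1 by 0.39 (adjusted p = 0.00687). What share of either belongs to Wnk4 cannot be told apart from the other named genes.

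Other genes of the WNK pathway did not move one way. Of 10 listed, 8 were tested, and in block 3 against block 1 there were 2 higher and 2 lower, with a median of 0.07. Of all probe sets, 20.7% were higher and 20.4% lower. Cul3, the scaffold of the ubiquitin ligase that degrades WNK kinases, averaged 1339 ± 142, 1431 ± 84.7 and 963 ± 86.4 units in blocks 1, 2 and 3 (SD, n = 6 each). Klhl3, the adaptor that brings WNK kinases to it, averaged 57.2 ± 11.5, 46.8 ± 5.42 and 29.6 ± 7.91 units. Both fell in block 3 against block 1, with differences of -0.48 ± 0.07 for Cul3 (SE, limma adjusted p = 7.81e-06) and -0.60 ± 0.13 for Klhl3 (adjusted p = 0.00051). The adaptor Klhl2 (0.35, adjusted p = 0.0199) and the phosphatase subunit Ppp3ca (0.24, adjusted p = 0.0399) were higher. Oxsr1, the sister kinase of SPAK, was not called (-0.23, adjusted p = 0.0974). None of the 8 was called between strains, where Cab39l, which encodes a scaffold that activates SPAK, had the smallest limma p (0.142).

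Of 18 genes of aldosterone signalling and ENaC regulation, 17 were tested, and 4 were higher and 4 lower in block 3 than in block 1, with a median of 0.07. The shares over all probe sets were 20.7% higher and 20.4% lower. Furin, a protease that cleaves and activates ENaC, averaged 261 ± 58.1, 223 ± 32.9 and 367 ± 50.8 units in blocks 1, 2 and 3 (SD, n = 6 each), and was higher in block 3 than in block 1 by 0.46 (limma, adjusted p = 0.00468). Prss8, the channel-activating protease prostasin, was higher by 0.34 (adjusted p = 0.0408), and Rictor, a subunit of the complex that phosphorylates SGK1, by 0.34 (adjusted p = 0.0421). St14, another membrane protease, was lower, with a difference of -0.56 (adjusted p = 5.19e-05). Hsd11b2, the enzyme that shields the mineralocorticoid receptor from glucocorticoids, averaged 1655 ± 229, 1131 ± 119 and 1150 ± 97.5 units, and was lower, with a difference of -0.54 (adjusted p = 1.49e-05). The receptor itself, Nr3c2, and the ubiquitin ligase that removes ENaC, Nedd4l, were not called (0.08 and 0.07, adjusted p = 0.489 and 0.516). Spint2, a protease inhibitor, was higher in block 3 than in block 2 by 0.48 (adjusted p = 0.000631). None of the 17 was called between strains, where Rictor had the smallest limma p before adjustment (-0.26, adjusted p = 1), followed by the deubiquitinase gene Usp2 (0.32, adjusted p = 1).

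Of 14 other cation-chloride cotransporters and distal channels, 7 were tested, and 1 was higher and 2 lower in block 3 than in block 1, with a median of -0.02. The shares over all probe sets were 20.7% higher and 20.4% lower. Bsnd, the barttin subunit of the basolateral chloride channels, averaged 471 ± 45.9, 264 ± 28.9 and 248 ± 50.9 units in blocks 1, 2 and 3 (SD, n = 6 each) and was lower in block 3 than in block 1, with a difference of -0.93 ± 0.11 (limma, adjusted p = 5.43e-07). Its interaction of strain and block had an unadjusted p of 0.00495 and did not pass (adjusted p = 0.648). Kcnj15 was lower, with a difference of -0.42 (adjusted p = 0.00184), and Kcnj16, a subunit of the basolateral potassium channel, was higher by 0.35 (adjusted p = 0.000361). Slc12a7, a potassium-chloride cotransporter, was higher in block 2 than in block 1 by 0.42 (adjusted p = 0.00191). Slc12a2, the secretory cotransporter related to Slc12a1, had the smallest limma p of the list for strain before adjustment (-0.14, adjusted p = 1).

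Markers of the distal segments differed between blocks. In block 3 against block 1, calls had both signs for the distal convoluted tubule and thick ascending limb. They were only lower for principal and intercalated cells. Over all probe sets, 20.7% were higher and 20.4% lower in block 3 than in block 1. In the distal convoluted tubule list, 5 of 7 genes were tested, with 1 higher and 2 lower in that comparison, and a median of -0.22. Their summed intensity was 3946.2 to 4532.8 units in block 1, 2766.4 to 3461.4 units in block 2 and 2335.0 to 2814.5 units in block 3. The fall of this sum followed Calb1, and the other tested genes of the list went both ways. Calb1, the calcium-binding protein of this segment, averaged 2690 ± 262, 1507 ± 238 and 1008 ± 93.9 units in blocks 1, 2 and 3 and was lower in block 3 than in block 1, with a difference of -1.39 ± 0.07 (limma, adjusted p = 6.38e-13), and Fgf13 was higher by 0.80 (adjusted p = 3.54e-06). Slc8a1 was lower (-0.29, limma adjusted p = 0.00707), and Tmem72 was not called (-0.22, adjusted p = 0.141). Slc16a7 averaged 1006 ± 124 units in block 3 and 943 ± 97.1 units in block 1 (SD, n = 6 each) and was not called (0.07, adjusted p = 0.498). Pvalb, a marker of the early segment, was too dim to be tested, and Trpm6 had no probe set naming it alone. For principal cells, where ENaC acts, 7 of 8 tested markers were lower in block 3 than in block 1 and 0 higher, with a median of -0.57. Among them were the water channel genes Aqp2 (-0.69, adjusted p = 1.54e-05) and Aqp4 (-1.64, adjusted p = 7.8e-06). The summed intensity of principal cell markers was 3777.7 to 5016.7 units in block 3, against 6024.5 to 7115.4 units in block 1.

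In the thick ascending limb list, 6 of 8 markers were tested, with 3 higher and 1 lower in block 3 than in block 1, and a summed intensity of 7917.9 to 9249.2 units in block 3, against 8881.1 to 9919.9 units in block 1. Its brightest gene, Umod, was called higher on the normalized scale (0.23, limma adjusted p = 0.000113), although its deposited mean was 5839 units in block 3 and 6704 units in block 1. Of 6 intercalated cell markers tested, 0 were higher and 2 lower. Of 6 tubular injury genes, 5 were higher in block 3 than in block 1 and 0 lower, with a median of 1.89 and a summed intensity of 7296.6 to 12936.5 units in block 3, against 2208.9 to 4519.2 units in block 1. Havcr1, which encodes the injury marker KIM-1, was higher by 3.89 (adjusted p = 4.03e-11). Of 6 macrophage markers, 5 were higher and 0 lower. Of 11 proximal tubule markers, 0 were higher and 2 lower, and of 5 tested podocyte markers, 1 was higher and 2 lower. Beside the list counts of this paragraph stand 20.7% higher and 20.4% lower of all probe sets in block 3 against block 1. The part of segment makeup and injury in the block differences of the members was not tested.

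**Figure D5:**
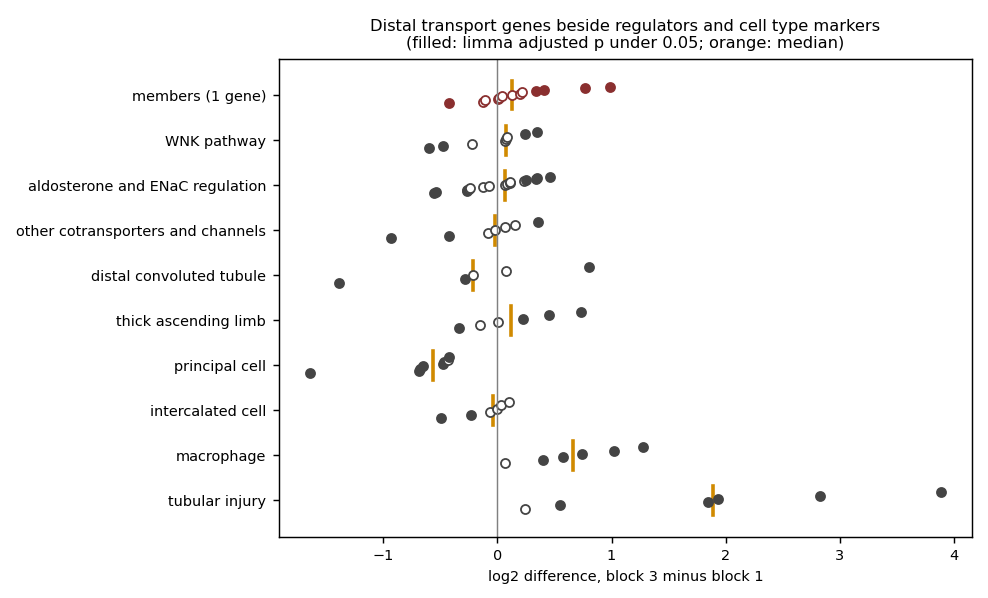
Block 3 minus block 1 differences on the log2(intensity + 16) scale (horizontal axis) for the 13 probe sets of the distal transport genes and for genes of the pathway and marker lists (rows), with filled points where the adjusted p was under 0.05 and an orange bar at each list's median. The principal cell list lies to the left, with a median of -0.57, and the tubular injury list to the right, with a median of 1.89, while the distal transport genes centre on 0.13.

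The probe sets most like the called members over the 18 arrays were taken by Pearson r, as a description of arrays that share blocks. Closest to Slc12a3 were Hs6st1 (r = 0.928), Celf2 (0.919) and Abcd3 (0.915), and the r of Hs6st1 was 0.042 once the mean of each strain and block was taken off. Closest to Scnn1a were Rab25 (0.924), Ncdn (0.916) and Ptbp1 (0.907), and the r of Rab25 stayed at 0.896 after the cell means were taken off. Closest to Scnn1b were Aldh2 (0.871), Rxylt1 (0.863) and C1h11orf98 (0.858), and closest to Scnn1g were Lhfpl6 (0.837), Cand1 (0.813) and Zdhhc13 (0.81). For Wnk1, by its brightest probe set, they were Zfp202 (0.816), Xrn1 (0.807) and Kif23 (0.776), and for Stk39 they were Meis1 (0.909), Dgkg (0.901) and Abtb3 (0.896). Among the members, Slc12a3 and Scnn1a had an r of 0.606 over all arrays and of -0.605 after the cell means were taken off, so that they were high together by block and moved apart among rats of a cell. Scnn1a and Scnn1b had an r of 0.641, and 0.021 within cells, and Scnn1b and Scnn1g of 0.244 over all arrays.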

How the data were processed

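Affymetrix arrays of 18 kidneys were used. The intensity values are as the authors deposited them, 1 per probe set; on every array their mean, trimmed by 2% at each end, was 150.05, and 39 values were 0. Their software was not given in the sources used here. Per the labels' protocols, RNA was extracted with Trizol and RNeasy columns. The 57 control probe sets were left out. Values were taken as log2(intensity + 16), quantile-normalized because array medians spanned 0.235 (limit 0.2), and the 40% dimmest probe sets (mean under 5.48) were left out, leaving 18625. Each array was taken as 1 rat, and their number limits the precision.

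Fits used limma 3.58.1 (R 4.3.3; lmFit, eBayes with trend, two-sided, Benjamini-Hochberg adjustment over all 18625): strain alone, block with strain, and strain by block. Adjusted p-values in the text come from these fits. The fits were tested on simulated data in which few probe sets differed between blocks, unlike the real arrays. Their behaviour under broad block differences was not tested. Of the probe sets, 20826 name 1 gene, 436 several and 9780 none. A list gene is read from its brightest probe set. Named are all member probe sets, up to 4 genes per pathway list and fit by smallest p, and the 3 genes most like each called member; marker genes and further list genes were picked after their values were seen. The members and lists were chosen with earlier results of these data known. Arrays correlated at 0.909 to 0.988, and none was identical to another. Alternatives were pseudocounts of 1 and 64, other filters and scalings, eBayes without trend, array weights, block as a term, single strains and each rat left out. Fits on blocks 1 and 2, without 2 arrays, and with the beta-actin ratio were chosen after seeing the data. Plots were made with matplotlib 3.10.9.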

Additional observations from a re-analysis of the deposited data

Results flagged for a closer look

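For Stk39 1370614_s_at, the S.SHR(2) rat numbered replicate 3, in block 1, read 125.4 units, the highest of 9 S.SHR(2) rats, with a gap to the next that was 0.777 of the whole range, against a critical value of 0.493. The next highest S.SHR(2) rat read 87.8 units. Of 30 groups examined this way, 1 stood out, and chance gives about 1 in 20.

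Sgk1 had a strain difference of -0.64 in block 1, where all S.SHR(2) rats lay below all Dahl S rats. In block 3 the deposited intensities had the opposite order without overlap. The normalized values overlapped there, with a difference of 0.07 ± 0.15 (SE). The test of the difference between blocks, the interaction of strain and block in limma, did not pass (adjusted p = 0.648). The labels place a Dahl S rat of 4 weeks in block 1 and one of 12 weeks in block 2, both on 0.3% NaCl, and give no age or diet for the other 16 rats, so age, diet and array processing cannot be told apart here.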

How the results depend on the processing

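No member was called for strain or for the interaction under any setting, leaving out each rat included. Over all probe sets, strain calls numbered 23, and 41 with array weights and 92 with block as a term (16 to 28 with 1 rat left out). Interaction calls numbered 1, and 43 with array weights and 5 without the 2 arrays of highest beta-actin ratio (1 to 3 with 1 rat left out). Block calls numbered 9336 over all probe sets, and 5551 in S.SHR(2) alone and 5299 in Dahl S alone, fits with 9 arrays each (8639 to 9560 with 1 rat left out). Block calls among members numbered 8, and 4 in Dahl S alone (7 to 9 with 1 rat left out). No paired analysis was possible because replicate numbers were given in deposit order and pair no rats.

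The calls of Slc12a3, Scnn1a, Scnn1b, Wnk1 1396919_at and Stk39 1387059_at in block 3 against block 1 were kept in 18 of 18 fits with 1 rat left out. Those fits reused the filter set on all 18 arrays. Wnk1 1396919_at, which passed that filter through its high values in block 3, was therefore not filtered anew. The fall of Stk39 1387059_at in block 2 against block 1 was lost with arrays centred on medians (adjusted p = 0.0696) and without the 2 arrays (0.108). The rise of Wnk1 1372791_at in block 3 against block 2 was lost with no filter (0.0591) and without trend (0.0684). Apart from fits with 1 rat left out, 698 values kept their direction and side of the threshold, 34 lost a call and 8 gained one.

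Signs turned only for differences that were not called. For strain, these were Slc12a3 with array weights (-0.0023), Scnn1a in blocks 1 and 2 (-0.045), Scnn1g 1370481_at as deposited (-0.014) and without the 2 arrays (-0.038), and Wnk1 1372791_at in blocks 1 and 2 (0.0089). For block 2 minus 1, array weights, the fit without the 2 arrays, the beta-actin covariate and S.SHR(2) alone gave 0.0038, 0.0008, 0.015 and 0.16 for Scnn1b and 0.0046, 0.054, 0.026 and 0.033 for Scnn1g 1387986_at. For Wnk1 1396919_at, a pseudocount of 64, values as deposited, median centring, array weights, the fit without the 2 arrays and Dahl S alone gave -0.0013, -0.022, -0.0051, -0.018, -0.055 and -0.28. For 1389662_at (Vps25, Cntd1 and Wnk4), array weights, the covariate and S.SHR(2) alone gave -0.0074, -0.023 and -0.057. Slc12a1 was -0.0043 without the 2 arrays, and in S.SHR(2) alone Kcnj1 was 0.13 and Sgk1 0.23. For block 3 minus 2, Kcnj1 was -0.17 with the covariate. For block 3 minus 1, the covariate gave 0.0056 for Slc12a1, -0.015 for Scnn1g 1370481_at, -0.18 for Kcnj1 and -0.18 for Wnk1 1387072_at. S.SHR(2) alone gave -0.13 for Scnn1g 1370481_at and -0.17 for Wnk1 1372791_at, which was -0.0010 as deposited. Dahl S alone gave -0.13 for Kcnj1, -0.28 for Wnk1 1387072_at and -0.23 for Sgk1, and Wnk1 1387072_at was -0.045 without the 2 arrays. The cause was not tested.

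With 1 rat left out, strain differences crossed 0 for Scnn1a (-0.022 to 0.11), Scnn1g 1370481_at (-0.067 to 0.067) and 1371651_at (-0.0088 to 0.091). Block 2 minus 1 crossed 0 for Slc12a1 (-0.012 to 0.15), Scnn1b (-0.085 to 0.040), Scnn1g 1387986_at (-0.061 to 0.075), Kcnj1 (-0.31 to 0.0070), Wnk1 1396919_at (-0.050 to 0.093), 1389662_at (-0.066 to 0.076) and Sgk1 (-0.13 to 0.058). Block 3 minus 1 crossed 0 for Scnn1g 1370481_at (-0.033 to 0.084), Wnk1 1372791_at (-0.039 to 0.056) and Wnk1 1387072_at (-0.082 to 0.11). Without detection calls, dim probe sets such as Wnk1 1396919_at limit what low intensities show.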
